A study of Homo sapiens with 14 samples.

Results

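The 6 genes described here encode the ISG15 conjugation machinery and its closest HERC relative: ISG15, UBA7, UBE2L6, HERC5, HERC6 and USP18. They were taken by name from 35718 genes in the authors' RNA-seq table, and the rule uses no measured value, although earlier results of these data were known when it was set. All 6 are in the table, and 5 of the 6 passed the filter on low values that left 16433 genes for comparison. HERC5 had no reads in any group. HERC6 passed the filter only through the 3 knockdowns in which it was high, so a count that includes it is a description.

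ISG15 is a ubiquitin-like protein that interferon induces in most cell types. UBA7, the activating enzyme (E1), charges ISG15 and hands it to UBE2L6, the conjugating enzyme (E2). HERC5 is the main ISG15 ligase (E3) of human cells, and HERC6 is a related ligase that does this work in mice. USP18 removes ISG15 from its targets and also dampens signalling at the type I interferon receptor. ISG15, HERC5, HERC6, USP18, UBA7 and UBE2L6 are themselves known as interferon-stimulated genes.

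The RNA came from the established human leukaemia cell line K562, here with dCas9-KRAB, in which a catalytically dead Cas9 joined to a repressor domain serves for CRISPR interference. The groups were cells with guides against TASOR (2 libraries in the labels), TASOR2 (3), MPP8 (2) or PPHLN1 (2), untransduced dCas9-KRAB cells that received no guide (2), and cells with the control guide sgAAVS1 (3). RNA of the transduced cells was collected 7 days after transduction. Each library of a knockdown carried its own guide. Every group shares the cell line and the dCas9-KRAB fusion, and the labels do not say whether the cells came from 1 clone. TASOR is a subunit of the HUSH complex and TASOR2 of HUSH2, chromatin silencing complexes that both use MPP8 and Periphilin, the product of PPHLN1. The comparisons ask what loss of each subunit does to the transcripts of these genes.

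The table holds 1 mean per group on a log2 scale, so no SD or p-value over libraries can be given and the spread between guides could not be measured. The recovered geometric mean depth ranged over the groups from 5857937 to 7406968 reads per library, and the sgAAVS1 values fitted means of 3 libraries, those of every other group means of 2, TASOR2 included. Log2 differences are given with ± their 95% Poisson counting error, which leaves out every other source of spread. The rule of size calls a gene higher or lower at a difference of at least 1 on the log2 scale (2-fold), provided that the higher mean exceeds 0 and that the interval does not hold 0. Each targeted transcript was below its sgAAVS1 level in its own knockdown: the TASOR transcript was at 6.56% of that level, TASOR2 at 37.5%, MPP8 at 28.2% and PPHLN1 at 40.8%. All 9 K562 markers, such as GATA1 and TAL1, had means above 0 in every group (4.53 to 8.79). Of 16 markers of other cell types 7 were also above 0 in every group, while CD2 of T cells and MS4A1 of B cells stayed at or next to the value of no reads. In bulk RNA, fewer expressing cells and less RNA per cell cannot be told apart.

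The promoters of 3 of the genes show how the interferon-response sequence is spread over the family. RefSeq entries on GRCh38.p14 matched 4 of the 6 genes, each covering 250 bases before to 50 bases after a start. The interferon-stimulated response element (ISRE) core, written GAAA, 2 bases of any kind and GAAA again, was searched on both strands and is printed in capitals, in either strand's letters. It lies in 3.57% of 35116 promoters of this length. The ISG15 entry (chr1:1013247-1013546, plus strand) lies inside the interval the table gives for ISG15, the HERC5 entry is at chr4:88456869-88457168 (plus strand) and the HERC6 entry at chr4:88378602-88378901 (plus strand).
ISG15: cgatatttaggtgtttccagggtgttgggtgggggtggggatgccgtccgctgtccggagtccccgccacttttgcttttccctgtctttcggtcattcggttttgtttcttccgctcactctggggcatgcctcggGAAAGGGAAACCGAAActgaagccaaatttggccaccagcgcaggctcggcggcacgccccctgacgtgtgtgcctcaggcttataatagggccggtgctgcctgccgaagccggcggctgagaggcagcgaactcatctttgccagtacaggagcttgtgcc
HERC5: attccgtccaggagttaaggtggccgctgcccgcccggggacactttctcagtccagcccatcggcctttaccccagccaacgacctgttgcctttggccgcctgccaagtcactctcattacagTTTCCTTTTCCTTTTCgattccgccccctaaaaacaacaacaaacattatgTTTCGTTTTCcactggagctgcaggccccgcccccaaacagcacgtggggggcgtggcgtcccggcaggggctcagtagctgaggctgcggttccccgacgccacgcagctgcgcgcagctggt
HERC6: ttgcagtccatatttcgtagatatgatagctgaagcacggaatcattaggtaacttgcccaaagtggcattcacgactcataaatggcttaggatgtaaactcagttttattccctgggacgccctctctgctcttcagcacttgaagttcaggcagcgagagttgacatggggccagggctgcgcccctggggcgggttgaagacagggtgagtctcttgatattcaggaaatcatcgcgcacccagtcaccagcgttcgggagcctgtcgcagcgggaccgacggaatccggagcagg
The ISG15 promoter holds 2 ISRE cores that overlap each other, at positions -113 and -107 from the start. The HERC5 promoter holds 3 on the minus strand, at positions -125, -119 and -74, of which the first 2 overlap. No match to these letters lies in the HERC6 window or in either of the 2 UBE2L6 windows (chromosome 11, minus strand). The gamma-activated sequence GAS (TTC, 3 bases of any kind and GAA, both strands), found in 7.66% of promoters, has no match in any of the windows of these 4 genes. A match is a description of the letters and not a shown binding site.

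ISG15, the modifier itself (chromosome 1, 1001138 to 1014541, plus strand, hg38), was higher in 3 of the 4 knockdowns. Its log2 mean was 3.90 in TASOR, 4.67 in TASOR2, 4.73 in MPP8, 4.87 in PPHLN1, 3.70 in untransduced cells and 3.47 in sgAAVS1. TASOR2, MPP8 and PPHLN1 stood together at the top, and their lowest mean was 0.77 above the highest of the other 3 groups. Against sgAAVS1, ISG15 differed by 1.20 ± 0.26 in TASOR2 (2.30-fold), 1.26 ± 0.25 in MPP8 (2.39-fold) and 1.40 ± 0.25 in PPHLN1 (2.64-fold), and all 3 were called higher. In TASOR it differed by 0.43 ± 0.28 and in untransduced cells by 0.23 ± 0.28, and neither passed the rule. These values rest on about 103 reads per library in TASOR, 149 in TASOR2, 157 in MPP8, 175 in PPHLN1, 96.5 in untransduced cells and 68.8 in sgAAVS1. In the order of the levels, the step between TASOR2 and TASOR exceeded its counting interval, and no other step between neighbouring groups did.

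USP18, the ISG15 protease (chromosome 22, 18149899 to 18177397, plus strand), followed the same grouping at few reads. Its log2 mean was 0.45 in TASOR, 2.19 in TASOR2, 1.78 in MPP8, 1.58 in PPHLN1, 0.56 in untransduced cells and 0.46 in sgAAVS1. The 3 highest means were those of TASOR2, MPP8 and PPHLN1, with a gap of 1.02 to the other 3 groups. The share of all tested genes with such a split was not computed, for USP18 or for ISG15, HERC6 and UBE2L6. USP18 was called higher than in sgAAVS1 in TASOR2 by 1.73 ± 0.68 (3.33-fold), in MPP8 by 1.33 ± 0.71 (2.51-fold) and in PPHLN1 by 1.13 ± 0.73 (2.18-fold). The PPHLN1 call was lost when the median difference of all genes was subtracted (0.95). In TASOR the difference was -0.01 ± 0.86 and in untransduced cells 0.11 ± 0.82, and the TASOR interval ran between -0.86 and 0.85. Reads per library were 9.49 in TASOR, 26.7 in TASOR2, 20.4 in MPP8, 17.9 in PPHLN1, 11 in untransduced cells and 8.51 in sgAAVS1. USP41, a near copy of USP18, was at the value of no reads in every group, and the treatment of reads shared by the 2 genes is not stated in the sources used.

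HERC6, the HERC ligase next to HERC5 (chromosome 4, 88378739 to 88443111, plus strand), showed the largest difference of the 5 measured genes. Its log2 mean was -0.80 in TASOR, 1.91 in TASOR2, 1.18 in MPP8, 1.54 in PPHLN1, -0.60 in untransduced cells and -1.0 in sgAAVS1. The gap between the 3 high and the 3 low groups was 1.78. Against sgAAVS1 the difference was 2.91 ± 1.02 in TASOR2 (7.51-fold), 2.18 ± 1.08 in MPP8 (4.52-fold) and 2.53 ± 1.04 in PPHLN1 (5.79-fold), all called higher. TASOR differed by 0.20 ± 1.36 and untransduced cells by 0.40 ± 1.29. The wide intervals follow from the depth: HERC6 had 4 reads per library in TASOR, 22.0 in TASOR2, 13.4 in MPP8, 17.3 in PPHLN1, 4.90 in untransduced cells and 3.11 in sgAAVS1.

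HERC5, the main human ISG15 ligase (chromosome 4, 88457117 to 88506163, plus strand), was at the value of no reads in all 6 groups. The limit of 3 counts over a group corresponds to a log2 mean of -2.21 in TASOR, -1.97 in TASOR2, -1.98 in MPP8, -1.99 in PPHLN1, -2.30 in untransduced cells and -2.63 in sgAAVS1. HERC5 was thus not detectable at this depth. Its neighbour HERC6 has its start at -78.4 kb from that of HERC5. No difference between groups can be given for it.

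UBA7, the E1 enzyme (chromosome 3, 49805207 to 49813946, minus strand), did not share the grouping of the 3 genes above. Its log2 mean was 5.01 in TASOR, 4.86 in TASOR2, 5.54 in MPP8, 5.38 in PPHLN1, 4.61 in untransduced cells and 4.74 in sgAAVS1. MPP8 and PPHLN1 stood above the other 4 groups, and TASOR2 lay below TASOR by less than the counting interval. Against sgAAVS1 it differed by 0.80 ± 0.17 in MPP8 (1.74-fold) and 0.64 ± 0.18 in PPHLN1 (1.56-fold), under the 2-fold threshold though with intervals clear of 0. In TASOR2 the difference was 0.12 ± 0.20, in TASOR 0.27 ± 0.18 and in untransduced cells -0.13 ± 0.20. MPP8 exceeded TASOR2 by 0.68 ± 0.20 and PPHLN1 exceeded TASOR2 by 0.53 ± 0.20.

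UBE2L6, the E2 enzyme (chromosome 11, 57551656 to 57568284, minus strand), differed little between groups and was called in none. Its log2 mean was 5.98 in TASOR, 6.20 in TASOR2, 6.22 in MPP8, 6.44 in PPHLN1, 5.90 in untransduced cells and 5.80 in sgAAVS1. The TASOR2, MPP8 and PPHLN1 means were again the highest 3, with a gap of 0.22 to the rest. The difference from sgAAVS1 was 0.18 ± 0.13 in TASOR, 0.40 ± 0.13 in TASOR2, 0.42 ± 0.13 in MPP8, 0.64 ± 0.12 in PPHLN1 (1.56-fold) and 0.10 ± 0.13 in untransduced cells. With 346 to 519 reads per library it was the deepest of the 6 genes, and its intervals were the narrowest.

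In the order of the levels, neighbouring groups differed beyond the counting interval at few steps. For USP18 this was the step between PPHLN1 and untransduced cells, for HERC6 that between MPP8 and untransduced cells, and for UBA7 that between PPHLN1 and TASOR. UBE2L6 had 2 such steps, between PPHLN1 and MPP8 and between TASOR2 and TASOR. All other neighbours in the order of these 4 genes differed by less than counting error.

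**Figure D1:**
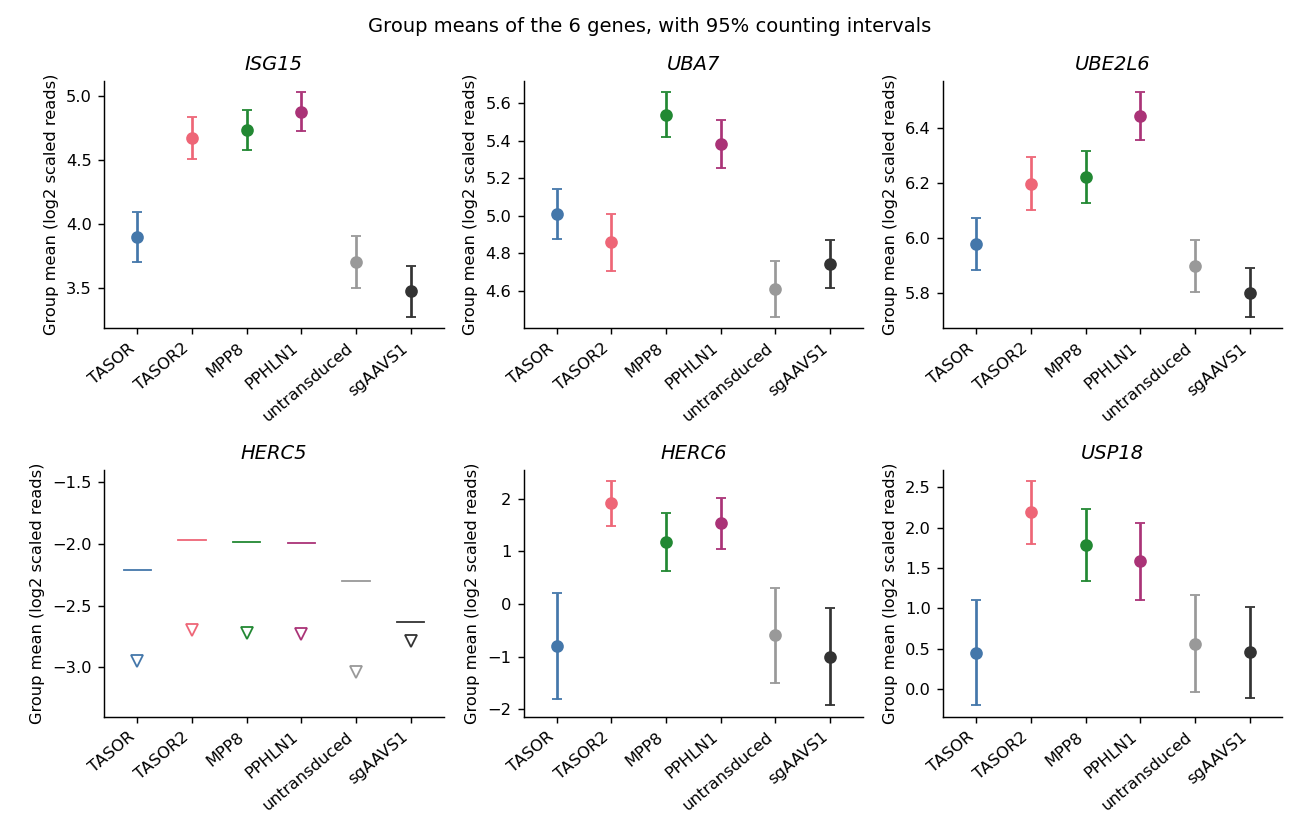
Group means of the 6 genes (vertical axes, log2 scaled reads, a different range in each panel) for the 4 knockdowns, untransduced cells and sgAAVS1. Points are the authors' group means with 95% counting intervals. For HERC5, open triangles mark the value of no reads and short lines the limit of 3 counts over the group. ISG15, HERC6, USP18 and UBE2L6 have their 3 highest means in TASOR2, MPP8 and PPHLN1, and UBA7 has its highest in MPP8 and PPHLN1.

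Counted against sgAAVS1, 3 of the 5 measured genes were called higher in TASOR2, where 2.26% of all tested genes were, 3 of 5 in MPP8 (background 1.65%) and 3 of 5 in PPHLN1 (background 2.88%). They were ISG15, USP18 and HERC6 each time. HERC6 entered the 5 only through these 3 knockdowns, so each of these counts is a description. In TASOR 0 of 5 were called higher (background 1.95%), and in untransduced cells 0 of 5 (background 1.38%). None of the 5 was called lower in any of these comparisons, in which 0.341% of genes were called lower in TASOR, 2.03% in TASOR2, 0.316% in MPP8, 0.615% in PPHLN1 and 0.237% in untransduced cells. The 5 comparisons share the sgAAVS1 libraries. The median difference over all tested genes was 0.16 in TASOR, 0.07 in TASOR2, 0.12 in MPP8, 0.17 in PPHLN1 and 0.05 in untransduced cells, above 0 in each.

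**Figure D2:**
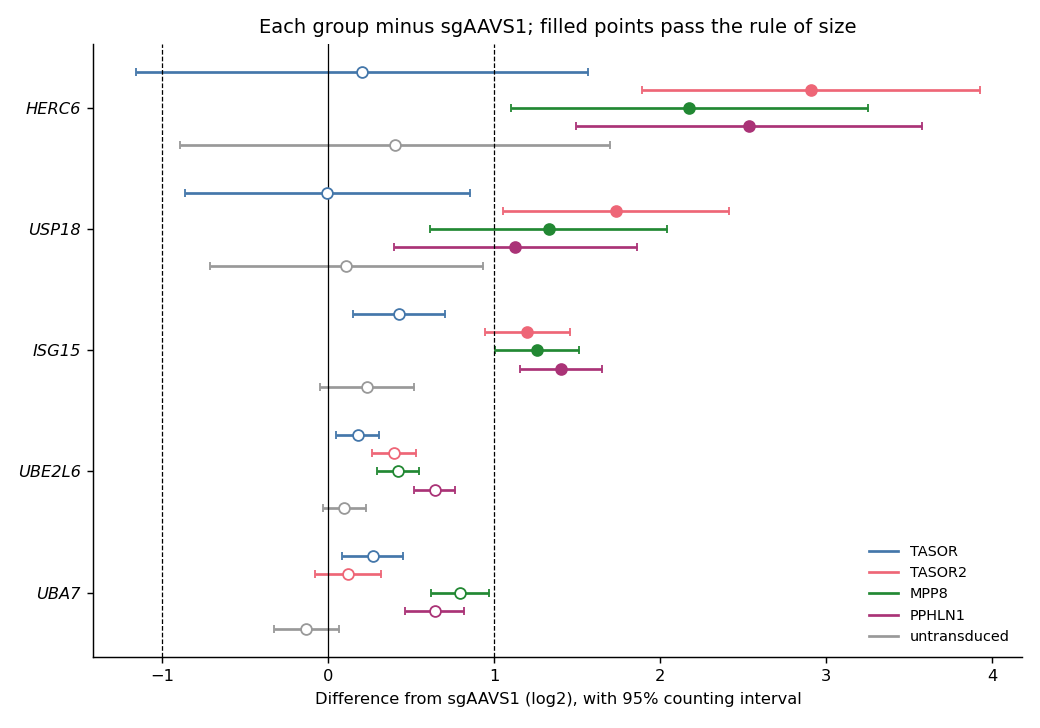
Log2 difference of each knockdown and of untransduced cells from sgAAVS1 (horizontal axis) for the 5 measured genes. Bars are 95% counting intervals, dashed lines mark 2-fold, and filled points pass the rule of size. The filled points are ISG15, USP18 and HERC6 in TASOR2, MPP8 and PPHLN1, with differences of 1.13 to 2.91.

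Untransduced cells gave a second control. The counts against them again include HERC6 and are a description. Against them USP18 and HERC6 were called higher in TASOR2, by 1.62 ± 0.72 and 2.51 ± 1.0, while ISG15 at 0.97 ± 0.26 was just under the threshold (2 of 5, background 1.37%). In MPP8, ISG15 (1.03 ± 0.26), USP18 (1.22 ± 0.75) and HERC6 (1.78 ± 1.06) were called higher (3 of 5, background 1.25%). In PPHLN1 the same 3 genes were called higher, by 1.17 ± 0.25, 1.02 ± 0.77 and 2.13 ± 1.02 (3 of 5, background 1.56%). The ISG15 call in MPP8 and the USP18 call in PPHLN1 were lost after median centring (0.95 and 0.88), after quantile normalization (0.97 and 0.98) and with the GC trend removed (0.88 and 0.98). In TASOR 0 of 5 were called higher (background 1.28%), and the differences ran between -0.20 for HERC6 and 0.40 for UBA7. None of the 5 genes was called lower than in untransduced cells, beside 0.84% of genes in TASOR, 3.26% in TASOR2, 1.02% in MPP8 and 0.822% in PPHLN1. Calls that held against both controls numbered 0 in TASOR (background 0.536%), 2 in TASOR2 (0.998%), 3 in MPP8 (0.706%) and 3 in PPHLN1 (1.19%), with the MPP8 and PPHLN1 counts resting on those 2 calls in part.

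The knockdowns were also set against each other, with no control involved. HERC6 is among the 5 genes only through its TASOR2, MPP8 and PPHLN1 means, so the counts that include it are a description. Compared with TASOR2, TASOR was lower for USP18 by -1.74 ± 0.76 and for HERC6 by -2.71 ± 1.09 (2 of 5 called lower, background 1.39%, and 0 of 5 higher, background 5.23%), and ISG15 at -0.77 ± 0.26 was not called. MPP8 was higher than TASOR for USP18 (1.33 ± 0.79) and HERC6 (1.97 ± 1.14), 2 of 5 against a background of 0.803% (0 of 5 lower, background 1.06%). PPHLN1 was higher than TASOR for USP18 (1.13 ± 0.80) and HERC6 (2.33 ± 1.11), 2 of 5 against 1.38% (0 of 5 lower, background 0.961%), and ISG15 came to 0.98 ± 0.25. Among TASOR2, MPP8 and PPHLN1 0 of 5 genes were called in any of the 3 pairs, where 3.96% of genes were higher and 1.52% lower in MPP8 than in TASOR2, 5.07% and 1.42% in PPHLN1 than in TASOR2, and 0.59% and 0.864% in MPP8 than in PPHLN1. The largest of these differences was HERC6 in MPP8 against TASOR2, at -0.73 ± 0.69.

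The whole reads behind the means limit how evenly the libraries of a group can have contributed. Where a group mean is taken over 2 libraries, the value fixes the product of their reads. For HERC6 in PPHLN1 this product was 299, which allows 13 and 23 reads or 1 and 299. For USP18 in PPHLN1 it was 319, which allows 11 and 29 reads or 1 and 319. HERC6 in TASOR2 had a product of 486, with 18 and 27 reads as the most even split, and in MPP8 180, with 12 and 15. Both of these HERC6 values also allow a split with 0 reads in 1 library. USP18 in TASOR2 had 714 (21 and 34 at the most even) and in MPP8 416 (16 and 26). ISG15 in PPHLN1 had 30589, for which 169 and 181 reads are the most even split and 13 and 2353 the next. The table does not say which split is the true one.

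The TASOR2 differences from sgAAVS1 decreased with the GC content of the transcripts among genes with a mean over the 6 groups above 5 on the log2 scale (Spearman's rho -0.70 over 9378 genes, a description, since genes are not replicates), and untransduced cells showed the same sign (-0.54). In TASOR, MPP8 and PPHLN1 rho was 0.18, 0.31 and 0.34. Transcript GC was 63.4% for ISG15, 51.6% for USP18, 46.3% for HERC6, 58.3% for UBA7 and 57.2% for UBE2L6. With this trend removed the TASOR2 difference was 1.42 for ISG15, 1.79 for USP18, 2.85 for HERC6, 0.27 for UBA7 and 0.53 for UBE2L6, and the 3 calls remained.

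In the rest of the HERC family and of the conjugation enzymes, 1 gene passed the rule of size in a knockdown. Of all tested genes 1.95% were called higher in TASOR, 2.26% in TASOR2, 1.65% in MPP8 and 2.88% in PPHLN1. Called lower were 0.341%, 2.03%, 0.316% and 0.615% in the same order. At such shares, 0 or 1 called in lists of 4 to 10 genes does not set them apart from other genes. HERC1, HERC2, HERC3 and HERC4, of which HERC1 and HERC2 are the giant members, had 0 of 4 called in any knockdown, with differences from sgAAVS1 between -0.18 (HERC2 in TASOR2) and 0.11 (HERC3 and HERC4 in MPP8). The 8 other ISG15 ligases and cross-reactive deISGylases had 0 called, with a median difference of 0.23 in TASOR2, where the median of all tested genes was 0.07. ARIH1, an E3 that can act with UBE2L6, differed by 0.41 ± 0.07 in TASOR2. TRIM25, an E3 reported to ligate ISG15, differed by -0.04 in TASOR, 0.06 in TASOR2, 0.12 in MPP8 and 0.13 in PPHLN1, and USP24, a ubiquitin protease, by 0.11, 0.15, 0.02 and 0.07 in the same order. The 9 activating enzymes of ubiquitin and other modifiers had 0 called and a TASOR2 median of 0.22, and UBA1, the ubiquitin E1, differed by 0.17 at most (PPHLN1). Of 10 related conjugating enzymes, with a TASOR2 median of 0.30, UBE2E2 was called higher in PPHLN1 (1.10 ± 0.61), and it was also 1.16 ± 0.58 higher in untransduced cells than in sgAAVS1. UBE2E2 differed by 0.99 ± 0.60 in TASOR, 0.41 ± 0.68 in TASOR2 and 0.63 ± 0.66 in MPP8, and UBE2D1 by 0.62 ± 0.20 in TASOR2. ARIH1 and UBE2D1 were named after their values were seen. UBE2L3, the closest relative of UBE2L6 and named after its values were seen, differed by 0.25 at most (TASOR2).

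Genes on which USP18 acts in interferon signalling had 0 of 8 called in any knockdown. Beside them, 1.65% to 2.88% of all tested genes were called higher and 0.316% to 2.03% lower. TYK2, a receptor-bound kinase, differed by 0.13 ± 0.06 in TASOR, -0.05 ± 0.07 in TASOR2, 0.12 ± 0.07 in MPP8 and 0.20 ± 0.07 in PPHLN1. All 21 type I, II and III interferon genes searched were at the value of no reads in every group. The integrin chains that bind extracellular ISG15 are ITGAL and ITGB2. ITGAL was called higher in MPP8 (1.69 ± 1.32) and PPHLN1 (1.82 ± 1.30), while ITGB2 differed by 0.02 ± 0.29 in MPP8 and 0.08 ± 0.28 in PPHLN1. In TASOR the differences of the 2 chains were 0.35 and 0.93, and in TASOR2 -0.23 and 0.39, none of them called.

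Among 16 measured genes whose proteins are known to be ISG15-modified, 0 were called higher in TASOR (background 1.95%), 4 in TASOR2 (2.26%), 3 in MPP8 (1.65%) and 3 in PPHLN1 (2.88%). A gene low in the controls can enter the 16 only through groups in which it is high, so these counts are a description. Their median difference was 0.16, 0.27, 0.20 and 0.21 in that order of knockdowns, beside 0.16, 0.07, 0.12 and 0.17 over all tested genes. Their TASOR differences ran between -0.03 and 1.38, the largest above the 2-fold threshold but not called. Those called were themselves interferon-stimulated genes. IFIH1, which encodes MDA5, a sensor of double-stranded RNA, had differences called higher of 2.75 ± 0.29 in TASOR2, 2.40 ± 0.30 in MPP8 and 2.76 ± 0.29 in PPHLN1. MX1, an antiviral GTPase, was higher by 2.21 ± 1.5, 2.30 ± 1.49 and 2.98 ± 1.42 in the same knockdowns. IFIT1, which binds viral RNA ends, was called in TASOR2 (2.71 ± 1.47) and MPP8 (2.40 ± 1.5) with a PPHLN1 value of 1.64 ± 1.62, and its partner IFIT3 in TASOR2 (1.07 ± 0.36) and PPHLN1 (1.28 ± 0.35) with an MPP8 value of 0.88 ± 0.37.

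The wider interferon-stimulated list, without the 6 genes, had 0 of 43 measured members called higher than in sgAAVS1 in TASOR (background 1.95%), 16 in TASOR2 (2.26%), 13 in MPP8 (1.65%), 18 in PPHLN1 (2.88%) and 0 in untransduced cells (1.38%). A further 5 listed genes had no reads in any group and 5 were below the filter. Genes low in the controls, such as XAF1, entered the 43 only through knockdowns in which they were high, so these counts are a description. None of the 43 was called lower, beside 0.237% (untransduced cells) to 2.03% (TASOR2) of all tested genes. Against both controls the counts were 0 in TASOR (background 0.536%), 11 in TASOR2 (0.998%), 12 in MPP8 (0.706%) and 16 in PPHLN1 (1.19%). The list's median difference was 0.18 in TASOR, 0.54 in TASOR2, 0.64 in MPP8, 0.86 in PPHLN1 and 0.11 in untransduced cells. Single differences ran between -0.60 and 1.38 in TASOR and between -1.04 and 1.12 in untransduced cells, none of them called. Its largest differences, beside IFIH1 and MX1, were those of SAMD9, an antiviral factor (2.91 ± 0.24 in TASOR2, 2.65 ± 0.24 in MPP8 and 2.86 ± 0.24 in PPHLN1), and XAF1, a pro-apoptotic protein (2.46 ± 1.68 in TASOR2 and 2.92 ± 1.63 in PPHLN1, with an uncalled 2.28 ± 1.70 in MPP8). SAMD9 differed by 0.90 ± 0.28 in TASOR and -0.16 ± 0.33 in untransduced cells.

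**Figure D3:**
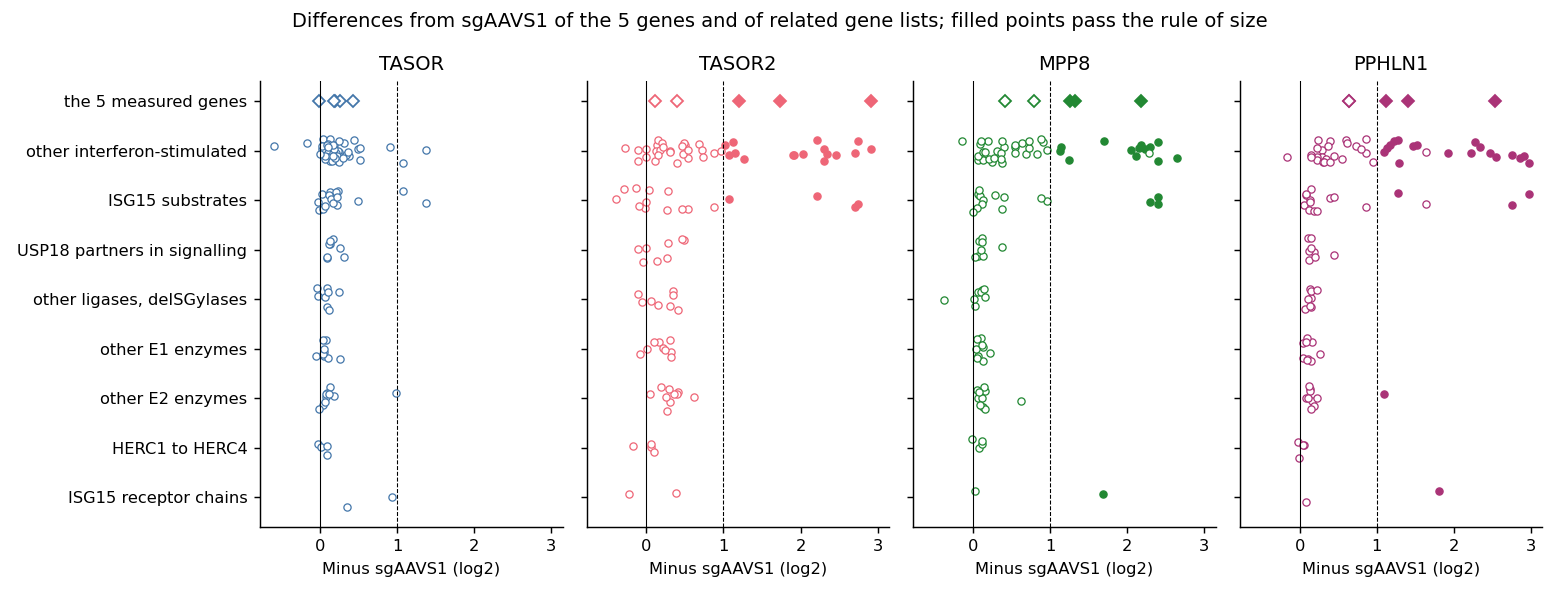
Log2 difference from sgAAVS1 (horizontal axes) in each knockdown for the 5 measured genes (diamonds) and for the genes of 8 related lists (circles, spread vertically for legibility). Filled symbols pass the rule of size and the dashed line marks 2-fold. The filled symbols lie mainly in the interferon-stimulated and ISG15 substrate rows of TASOR2, MPP8 and PPHLN1, and TASOR has 0.

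Position on the chromosome was examined through the 3 nearest tested genes on each side of each gene, 30 distinct genes without the members. None of the 30 was called higher or lower than sgAAVS1 in TASOR (background 1.95% higher and 0.341% lower), MPP8 (1.65% and 0.316%) or untransduced cells (1.38% and 0.237%). In TASOR2 0 of the 30 were higher (background 2.26%) and 2 lower (background 2.03%), the loci XXbac-B476C20.9 near USP18 (-1.26 ± 1.05) and RP11-624G17.3 near UBE2L6 (-1.71 ± 1.34), and in PPHLN1 1 was higher (background 2.88%), CDHR4 beside UBA7 (1.20 ± 1.19). Around HERC6, PPM1K differed by -0.04 ± 0.14 in TASOR2, 0.11 ± 0.14 in MPP8 and 0.11 ± 0.14 in PPHLN1, and HERC3 by 0.05 ± 0.12, 0.11 ± 0.12 and -0.01 ± 0.12. PYURF differed by 0.31 ± 0.13, 0.21 ± 0.13 and 0.17 ± 0.13 in the same order, and PIGY by 0.84 ± 0.33, 0.33 ± 0.36 and 0.56 ± 0.34. PIGY also differed by 0.62 ± 0.33 in TASOR and 0.51 ± 0.33 in untransduced cells. Beside ISG15, HES4, a transcriptional repressor with its start at -2.18 kb, differed by -0.05 ± 0.17 in TASOR2, 0.42 ± 0.16 in MPP8 and 0.50 ± 0.16 in PPHLN1. The antisense gene that overlaps ISG15 was at the value of no reads in every group.

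**Figure D4:**
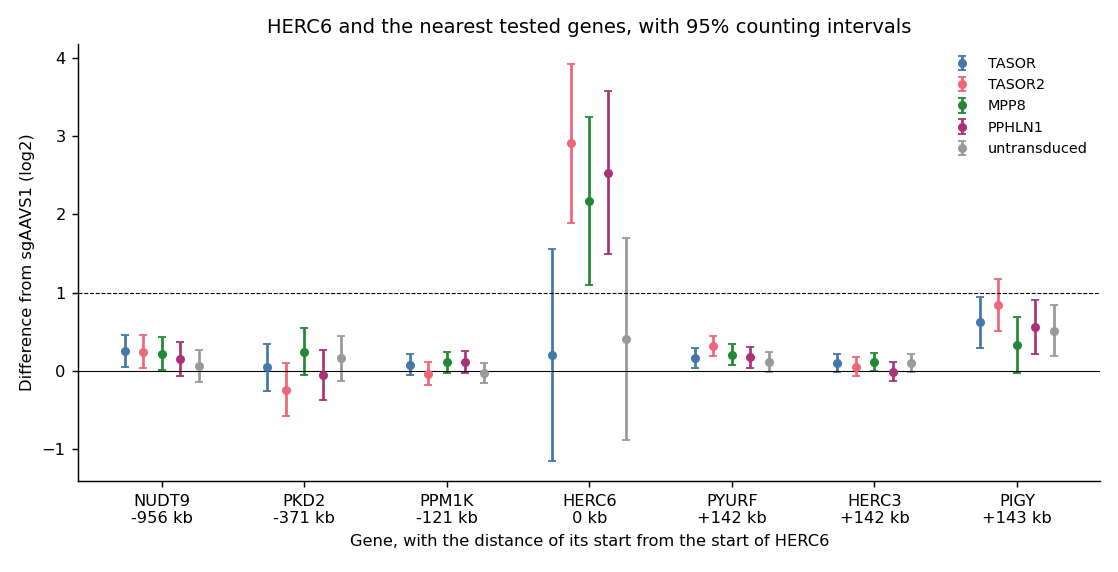
Log2 difference from sgAAVS1 (vertical axis, with 95% counting intervals) for HERC6 and the 3 nearest tested genes on each side, ordered along the chromosome and spaced evenly, with the distance of each start from that of HERC6. HERC5, between HERC6 and PYURF, had no reads. HERC6 in TASOR2, MPP8 and PPHLN1 is above the 2-fold line, and no neighbour is.

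The genes whose 6 group means ran most nearly parallel to those of each called gene were found by the root mean square distance between centred log2 means, over genes within 2 log2 units of its average. For ISG15, among 6830 genes, these were APOL2, an apolipoprotein L gene (0.088), ZNF559, a zinc finger gene (0.095), and OAS3, an oligoadenylate synthetase (0.119). For USP18, among 4349, they were PAXIP1-AS2 (0.244), ZNF597 (0.247) and SPX (0.250). For HERC6, among 3658, they were ZNF829 (0.276), SAMD9L (0.284) and RP4-665J23.4 (0.297). APOL2 had log2 means of 5.04 in TASOR, 5.99 in TASOR2, 5.99 in MPP8, 6.21 in PPHLN1, 4.80 in untransduced cells and 4.72 in sgAAVS1.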

How the data were processed

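Ribosomal RNA-depleted, strand-specific libraries of total RNA were made from 14 samples, per the labels. The submitters' processing notes name cutadapt, Bowtie2 and the build hg38. No source used here gives the counter, the annotation release or the use of strand. Deposited by the authors was 1 table of 35805 gene rows, of which 87 repeated a symbol and were dropped. Its untransduced column holds a deposited mean log2 value. The other 5 deposited columns were found to be quotients, a group's log2 mean over the untransduced one, and were multiplied back. All low values (100%, within a relative tolerance of 0.001) matched whole reads, with 0 reads set to 0.9, which gave the depth. For TASOR2 the mean fitted 2 libraries where the labels list 3, and no source used here says which guides entered. Guides could therefore not be compared.

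Genes entered with at least 1 mean above 0. A rule of size (a difference of 1 on the log2 scale, a higher mean above 0, a 95% counting interval without 0) took the place of a test and was tested on simulated data. Named genes were the 6 members, the called genes of each list (at most 4 of a long list) or else its highest, the 3 nearest genes on each side and the 3 most similar. Members and lists were chosen with earlier results of these data known, and the count for any list of them is no independent evidence. GC content came from GENCODE release 29 transcripts (98.9% of tested genes), promoters from RefSeq. Computations used python 3.11.15, numpy 2.4.6, pandas 2.3.3, scipy 1.17.1 and statsmodels 0.14.6 (locally weighted regression). Alternatives were median centring, quantile normalization, other filters, a 1.5-fold threshold, GC correction and the other control.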

Additional observations from a re-analysis of the deposited data

How the results depend on the processing

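No difference reversed its called direction under any alternative run. The counts of the 5 measured genes stayed within 1.5 times in 99 of 110 recomputed values. Many of these 99 were 0 under both settings, and the tolerance also passes a change between 3 and 2 called genes. The share therefore does not measure how stable single calls were. Requiring a higher mean above 2 left 1 of 3 called higher in MPP8 and 1 of 3 in PPHLN1 against sgAAVS1 (ISG15 in both), and against untransduced cells 1 of 2 in TASOR2, 1 of 3 in MPP8 and 1 of 3 in PPHLN1. That filter also left 0 of 2 higher in MPP8 and 0 of 2 in PPHLN1 against TASOR, and 1 of 2 lower in TASOR against TASOR2, since HERC6 and, outside TASOR2, USP18 lie below it. A 1.5-fold threshold gave 5 of 5 in PPHLN1 against sgAAVS1, and 1 higher (UBA7) and 1 lower (HERC6) in MPP8 against TASOR2, where the main rule gave 0.

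Calls close to the threshold changed with the scaling. USP18 in PPHLN1 against sgAAVS1 was 0.95 after median centring and 0.87 after quantile normalization. Against untransduced cells, USP18 in PPHLN1 was 0.88 after centring, 0.98 after quantile normalization and 0.98 with the GC trend removed, ISG15 in MPP8 was 0.95, 0.97 and 0.88 in the same order, and ISG15 in TASOR2 was called at 1.05 after quantile normalization and 1.10 with the GC trend removed. ISG15 in TASOR against TASOR2 was called at -1.02 with the GC trend removed. The cause was not tested.

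Counts over all genes depended more on the choices, with 45 of 98 recomputed counts beyond 1.5 times. Against sgAAVS1, 320 genes were called higher in TASOR, 209 after median centring and 134 after quantile normalization. The filter at 2 left 75 in TASOR, 135 of 372 in TASOR2, 100 of 271 in MPP8, 175 of 473 in PPHLN1 and 19 of 227 in untransduced cells. Quantile normalization left 285 in PPHLN1 and 111 in untransduced cells. The 1.5-fold threshold gave 876 in TASOR, 873 in TASOR2, 560 in MPP8, 1039 in PPHLN1 and 532 in untransduced cells. No paired analysis was possible because the table holds 1 mean per group and its columns carry no replicate number, and for the same reason leaving out single libraries was not run. Depth limits HERC5, HERC6 and USP18 most.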
